A study of Mus musculus with 4 samples.

Results

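Epithelial cells of the mouse colon were carried through a CD45 bead selection that is meant to keep leukocytes, and 64 of the 45229 cells deposited in 4 single-cell RNA sequencing libraries were such cells. They were chosen on measured values. A cell had to have at least 200 genes detected, under 20% mitochondrial unique molecular identifiers (UMIs, each counting 1 captured RNA molecule), at least 2 UMIs of Epcam, at least 5 UMIs of Krt8, Krt18 and Krt19 together, and no UMI of Ptprc, Cd3e, Cd79a, Csf1r or Cdh5. Epcam is a surface adhesion protein of epithelium and the keratins are its intermediate filaments, while the 5 excluded genes mark leukocytes, T cells, B cells, macrophages and endothelium. The rule left 12, 17, 7 and 28 cells in samples 1 to 4.

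The study took colons of AhR-null mice (B6.129-Ahr tm1Bra/J) and wild-type littermates on the C57BL/6 background. The null allele is not confined to one cell type. All mice drank 2% dextran sulfate sodium (DSS), a polymer that injures the colonic epithelium, for 7 days and then water, and tissue was taken on day 8. The labels give an age of 10 weeks for all 4 samples, whereas the description of the experiment gives 8 weeks. Each sample pooled colon tissue of 3 mice before digestion. Because the labels do not give a genotype, no comparison between genotypes was made, each sample is described by its own values, and no test was run between samples. Digested tissue was passed through a 70-µm filter, red blood cells were lysed, and CD45+ cells were kept by positive selection before the 10x Genomics workflow.

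The colon is lined by a single layer of epithelium that renews from stem cells at the crypt base. Absorptive colonocytes take up salt, water and short-chain fatty acids, goblet cells secrete the mucus, enteroendocrine cells release hormones and tuft cells sense luminal cues. Tight junctions, mucus and secreted antimicrobial proteins separate the tissue from the microbes of the lumen, and DSS damages this barrier.

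The libraries held 11425, 13730, 11581 and 8493 deposited cells with 113806334, 135516016, 101579112 and 72509408 UMIs in samples 1 to 4. After the filters on genes and mitochondrial UMIs, 10986, 13223, 11164 and 8059 cells remained, 43432 in all. The epithelial cells were 0.109% (exact Clopper-Pearson 95% interval 0.0565 to 0.191) of those in sample 1, 0.129% (0.0749 to 0.206) in sample 2, 0.0627% (0.0252 to 0.129) in sample 3 and 0.347% (0.231 to 0.502) in sample 4. The interval of sample 4 lay above those of the others. These intervals cover counting error only and not how cells were lost or kept during digestion and selection, so the shares do not measure the epithelium of the tissue.

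The Epcam, keratin and excluded-gene criteria each removed most of the cells that had passed until then. Of the filtered cells, 3321 had an Epcam UMI and 973 had at least 2. Of the latter, 327 also had 5 keratin UMIs, and 64 of these (19.6%) had no UMI of the excluded genes. The other 263 Epcam and keratin cells were deeper, with median UMIs of 61235, 33800.5, 66901 and 52842 in samples 1 to 4 against 3576, 18302, 25629 and 30426 in the 64 cells and 7464, 6170, 6469 and 6091 in all filtered cells. Of the 263, 59 had exactly 1 excluded UMI and 72 had at least 10; 237 had a Ptprc UMI. High Scrublet doublet scores were found for 22 of the 263 cells and 1 of the 64, and the part of doublets in the excluded cells was otherwise not tested. Near the limits of the rule, 5 of the 64 cells had exactly 2 Epcam UMIs and 4 had 5 to 7 keratin UMIs, while 2 cells just outside had 1 Epcam UMI and 2 had 2 to 4 keratin UMIs.

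**Figure D1:**
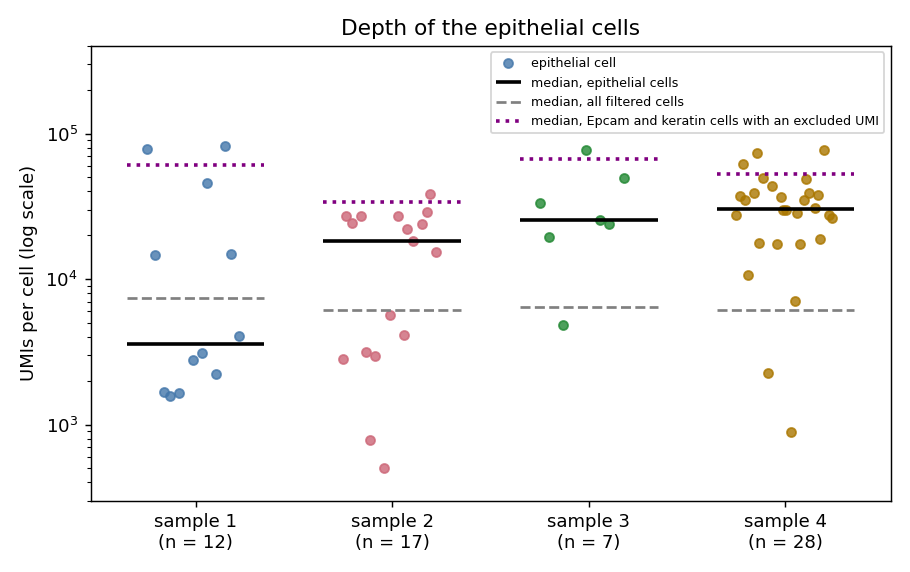
UMIs per epithelial cell (log axis) in samples 1 to 4, 1 point per cell, with the median of the epithelial cells (black), of all filtered cells (grey dashes) and of the Epcam and keratin cells that carried an excluded UMI (purple dots). The 64 cells ran from 506 to 82644 UMIs, and in sample 1 their median lay under that of all filtered cells, unlike in samples 2 to 4.

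Depth was uneven among the 64 cells. Their median was 24866 UMIs, 6 cells had under 2000, and the deepest cell gave 32.7%, 14.2%, 33.0% and 8.49% of the summed epithelial UMIs of samples 1 to 4. Summed levels in samples 1 and 3 thus lean on single cells, and sample 4, with 906019 epithelial UMIs, was the best measured. No barcode of the 64 cells occurred in another library; pairs of libraries shared 0.271% to 0.423% of barcodes. The median mitochondrial share was 7.32%, 9.37%, 13.0% and 11.04% in the epithelial cells and 2.503%, 2.81%, 2.23% and 2.29% in the leukocytes.

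Detection of some genes that the rule did not name is given as a description. Muc13, Lypd8 and Cdh1 were the most abundant of their lists in these cells, so they do not check the label of epithelium. Muc13, a transmembrane mucin, had a UMI in 64 of 64 cells, and Lypd8, a surface protein that keeps bacteria off the colonic epithelium, in 60. With each cell thinned to 2000 UMIs, Lypd8 was detected in 94.8% of 58 cells (85.6% to 98.9%) and in 1.74% of 34009 leukocytes; unthinned, the shares were 93.8% and 6.33%. The leukocytes were cells with at least 2 Ptprc UMIs and no Epcam, with median UMIs of 7770, 6204, 6663 and 6364.5, and their share is read as background. Cdh1, the adherens junction cadherin, was detected in 81.0% of thinned epithelial cells and 2.52% of leukocytes (unthinned 87.5% and 7.71%).

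Regional factors of the gut were examined next. Hoxb13, a homeobox gene of the distal gut, was at 131, 29.3, 64.1 and 120 CPM in samples 1 to 4, where CPM is the UMIs of the gene per 1000000 UMIs summed over the cells of a sample. It was above leukocytes in every sample, where it did not pass 0.354 CPM. Of the 20 genes on the list of gut regions, 10 were detected. Sis, an enzyme of the small intestinal brush border, had UMIs in 4 cells, all in sample 4. Fabp6, a bile acid carrier, was at 158, 11.01, 4.27 and 64.02 CPM in samples 1 to 4 and was seen in 11 cells. Its level was thus above that of Hoxb13 in sample 1. A single cell gave 82.5% of Fabp6 UMIs in sample 1 and 82.8% in sample 4. The region of gut that the cells came from was not tested. Of the 12 squamous and skin genes and the 10 genes of mesothelium none reached the expression floor used below.

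Of 16 genes that dissociation of tissue can induce, 3 were higher than in leukocytes of sample 4 (Egr1, Atf3 and Dnajb1) and 1 lower (Dusp1) by the rule given below, beside 17.2% of all genes measured that were higher and 22.3% that were lower. In all 4 samples 2 of 16, Egr1 and Dnajb1, were higher, beside 10.5% of all genes. These counts are near the shares over all genes or below them. Fos, an immediate early gene, was at 404, 686, 372 and 607 CPM beside 312, 432, 336 and 416 CPM in leukocytes.

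Markers of the other cell types were low but not absent. The neutrophil list summed to 392, 260, 235 and 174 CPM in the epithelial cells and to 29733, 7930, 28113 and 34921 CPM in leukocytes, and its most abundant gene was S100a9. Macrophage genes summed to 146, 147, 72.7 and 67.3 CPM, led by Cd14, and T cell genes to 15.8, 40.4, 8.55 and 14.4 CPM, led by Cd3g. The B and plasma cell list reached 1636 CPM in sample 2 against 261, 141 and 50.8 CPM in samples 1, 3 and 4. Igkc, an immunoglobulin light chain, gave 844 CPM of it, and sample 2 also had the highest Igkc in leukocytes (7219 CPM against 1191, 1405 and 1039). The fibroblast list summed to 115, 121, 120 and 238 CPM, mainly from Gsn, which leukocytes had too; of 10 endothelial genes 9 or 10 were at 0 in each sample, and all 5 erythroid genes were at 0. The part of this RNA in other results was not tested.

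Each gene was then set against leukocytes of the same sample. A gene was measured where either level reached 20 CPM, and was called higher or lower where the levels differed at least 4-fold and the higher one reached 20 CPM; a gene with no UMI in one of them was set at 3 UMIs there. The rule is one of size and gives no p-value. With a minimum of 20 cells only sample 4 could be read, and there 1303 of 7589 genes measured were higher (17.2%) and 1691 lower (22.3%). When the minimum was lowered to 5 cells, which was done once the cell numbers were known, 678 of 6428 genes were higher in all 4 samples (10.5%) and 609 lower (9.47%). These counts describe cells picked by their epithelial and leukocyte genes and are no evidence of their type. In the lists below, counts are for sample 4 unless they are said to be for all 4 samples. Every count of a list is to be read beside the shares over all genes. These are 17.2% higher and 22.3% lower in sample 4, and 10.5% and 9.47% in all 4 samples. Poisson intervals cover counting error only, not the spread between cells.

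**Figure D2:**
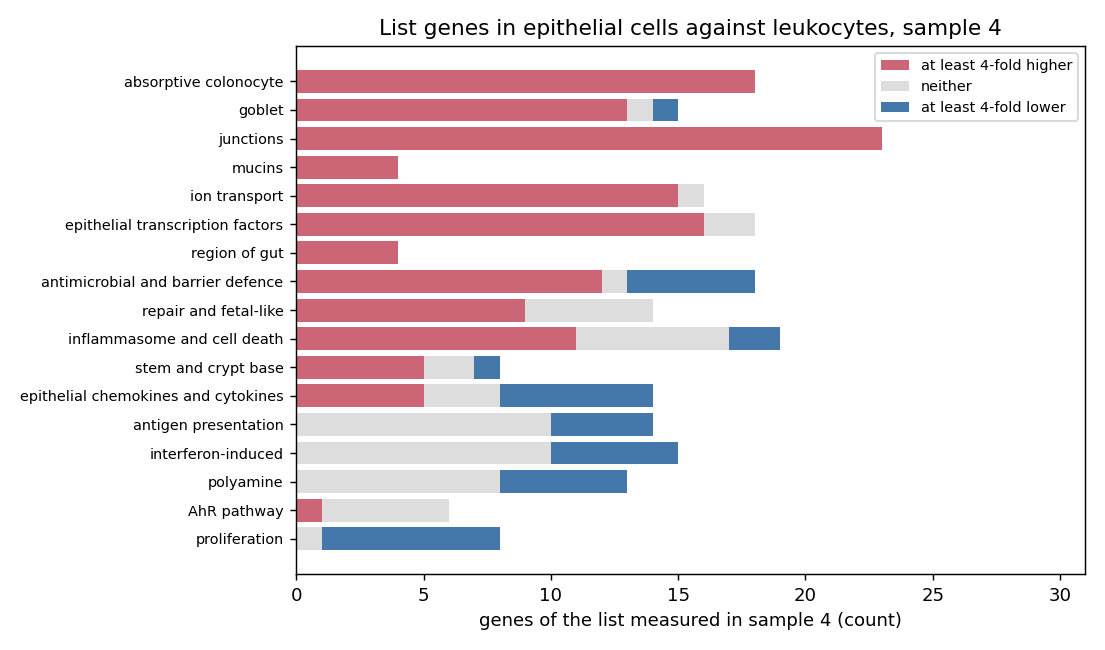
Genes of 17 lists measured in sample 4 (count on the horizontal axis), split into those at least 4-fold higher in epithelial cells than in leukocytes (red), at least 4-fold lower (blue) and neither (grey). All 23 junction genes and all 18 absorptive colonocyte genes measured were higher, whereas 7 of 8 proliferation genes were lower.

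Barrier genes were high in every sample. All 23 junction genes measured in sample 4 were higher, as were 21 of 21 in all 4 samples, with a median log2 ratio of 7.74 beside -0.46 over all genes measured in sample 4. Cldn7, a claudin of the tight junction, was at 1306, 924, 1223 and 1426 CPM. Cldn4, a sealing claudin, was at 871, 532, 654 and 497 CPM, and Cdh1 at 974, 1420, 1590 and 1449 CPM. In leukocytes Cdh1 did not pass 21.1 CPM. Dsg2, a desmosomal cadherin, was at 511, 444, 611 and 486 CPM. For each of these genes the highest sample was within 2-fold of the lowest, and of 20 junction genes abundant enough to compare samples 1 differed 4-fold, beside 11.5% of all genes compared.

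Surface mucins followed the same pattern and the secreted mucin did not. Of 12 mucin genes 7 were detected and 4 measured, and all 4 were higher. Muc13 was at 1611, 1988, 2090 and 2663 CPM. Muc3 was at 693, 693, 1449 and 1850 CPM, though reads of near-identical copies such as Muc3a may be split between them. Muc2, the gel-forming mucin of goblet cells, was at 0, 1409, 8.55 and 1555 CPM, and 1 cell gave 89.3% of its UMIs in sample 2 and 62.9% in sample 4. Muc5ac, Muc5b and Muc6, mucins of stomach and airway, had no UMI.

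Absorptive colonocyte genes took at least 1% of the UMIs of 40 of the 64 cells. All 18 absorptive colonocyte genes measured were higher in sample 4, and 12 of 13 in all 4 samples, with a median log2 ratio of 8.59. Lypd8 was at 5048 (4775 to 5333), 3797 (3569 to 4036), 5912 (5604 to 6232) and 8780 (8588 to 8975) CPM with exact Poisson intervals. Leukocytes had 3.52, 13.6, 3.12 and 10.8 CPM. Car1, a cytosolic carbonic anhydrase, was at 79.2, 2043, 2000 and 4808 CPM. Guca2a, which encodes the secreted peptide guanylin, was at 27.7, 1053, 1740 and 2945 CPM. Sample 1 was lowest in Car1 and Guca2a. Its Lypd8 level rested on 1 cell, which gave 72.2% of the UMIs. In sample 1 the deepest cell, with 82644 UMIs, had the lowest absorptive share of its 12 cells, 0.192%, and the next, with 77966 UMIs, had 0.412%.

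Transport genes were mostly higher too, and fuel genes in part. Of 16 ion transport genes 15 were higher, and 11 of 13 in all 4 samples. Atp1b1, a subunit of the sodium pump, was at 768, 851, 1081 and 1379 CPM. Slc26a3, the chloride and bicarbonate exchanger, was at 234, 125, 192 and 339 CPM, and Cftr, the apical chloride channel, at 79.2, 180, 291 and 159 CPM. Among 16 genes of oxygen and butyrate metabolism 9 were higher and 1 lower, beside 17.2% and 22.3% of all genes. A further count, for all 4 samples, had 4 of 14 higher, beside 10.5% of all genes. Slc5a8, which takes up butyrate, was at 95.02, 169, 128 and 212 CPM against at most 0.531 CPM in leukocytes.

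Of 18 epithelial transcription factors measured 16 were higher and none lower, and 11 of 14 in all 4 samples. Elf3, an epithelial ETS factor, was at 372, 646, 513 and 754 CPM. Hnf4a, a nuclear receptor of gut epithelium, was at 119, 158, 98.3 and 150 CPM, and the intestinal homeobox gene Cdx2 at 31.7, 69.7, 47.0 and 81.7 CPM. Hnf4g, a relative of Hnf4a, was among the 10 genes with the largest ratio in sample 4, at 137 CPM there and 7.92, 66.0 and 25.6 CPM in samples 1 to 3. The others were Mettl7b, 2610528J11Rik, Arhgef16, Slc51b, Fabp6, Btnl4, Cdx2, Aoc1 and Glod5. Slc51b is a subunit of the bile acid exporter and Fabp6 a bile acid carrier, and 82.8% of Fabp6 UMIs of sample 4 came from 1 cell. All 10 had 1 to 4 leukocyte UMIs in sample 4, so their order is uncertain. Ranked by their lowest ratio over the 4 samples, the first 10 were Gsta1, 2610528J11Rik, Frk, Ugt2b34, Atp10b, Usp43, Sycn, Rhbdl2, Cldn4 and Gm5485. Some of these also had few leukocyte UMIs, such as Gsta1 with 4, 6, 2 and 6 in samples 1 to 4, so this order is uncertain too. For Sycn, 1 cell gave 93.9%, 72.2%, 99% and 34.6% of the UMIs in samples 1 to 4. Frk, a Src-related kinase, was at 348, 400, 479 and 349 CPM.

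**Figure D3:**
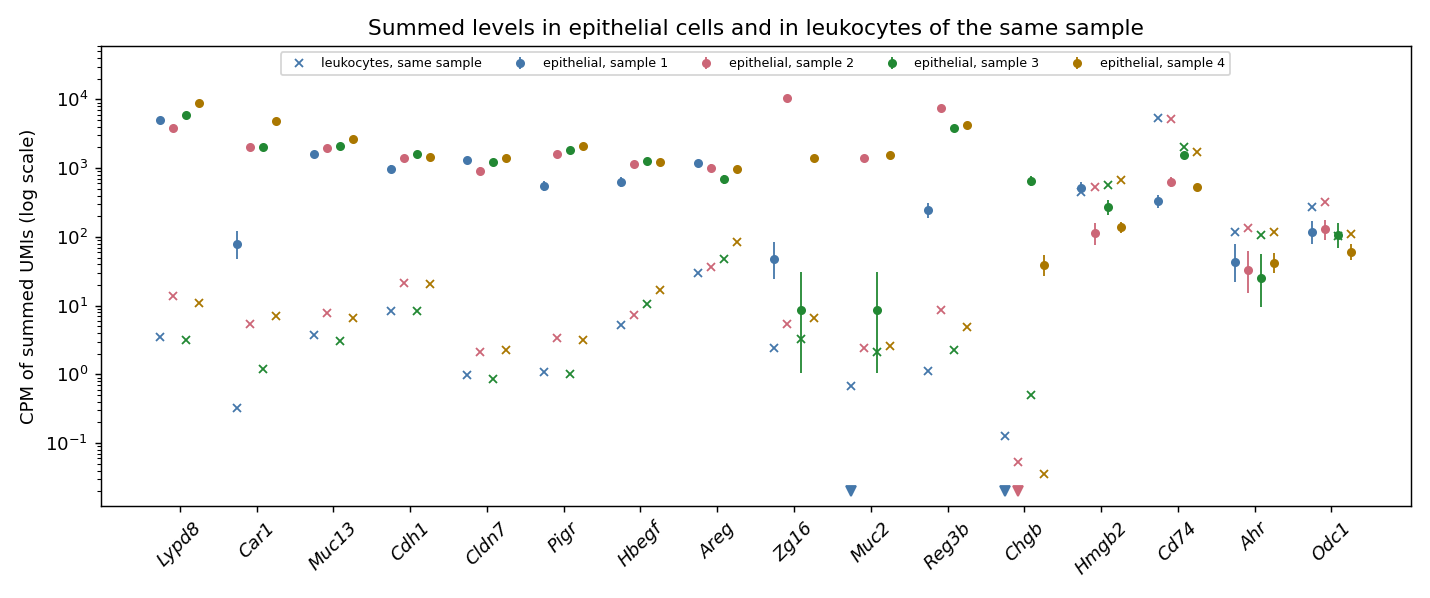
Summed level of 16 genes (CPM, log axis) in epithelial cells of samples 1 to 4 (points, with exact Poisson 95% intervals) and in leukocytes of the same samples (crosses); downward triangles at the base of the plot mark genes with no epithelial UMI. Lypd8, Muc13, Cdh1 and Cldn7 lay far above leukocytes in every sample, Zg16, Muc2 and Chgb only in some, and Ahr lay under leukocytes in all 4.

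Among host defence genes, Reg3b was seen in 21 and Saa1 in 23 of the 64 cells, whereas Lypd8 was seen in 60 and Dmbt1 in 54. Of 18 antimicrobial and barrier defence genes 12 were higher and 5 lower, the latter near the share over all genes (17.2% higher and 22.3% lower). For all 4 samples 10 of 16 were higher and 5 lower, beside 10.5% and 9.47% of all genes. The 5 lower genes of sample 4 were Lcn2, Saa3, Slpi, S100a8 and S100a9, which myeloid cells also make. Dmbt1, a secreted scavenger protein, was at 1694, 2715, 4775 and 3189 CPM. Pigr, which carries IgA across the epithelium, was at 554, 1599, 1847 and 2136 CPM. Reg3b, a C-type lectin that kills bacteria, was at 245, 7447, 3809 and 4288 CPM, but its UMIs came from few cells. Reg3b had a UMI in 1 of 12, 5 of 17, 4 of 7 and 11 of 28 cells of samples 1 to 4, and in 3.70% of leukocytes unthinned. Of 64 cells, 12 had at least 100 Reg3b UMIs (0, 3, 2 and 7 in samples 1 to 4). The highest held 1282 of 27047 UMIs in sample 2 and 1246 of 30981 in sample 4, next to 43 cells with no Reg3b UMI. Saa1, an acute-phase protein, was at 1350, 880, 308 and 1055 CPM and was seen in 23 cells, with 84.8% of its UMIs in sample 1 from 1 cell.

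Genes of repair and of a fetal-like state were raised beside leukocytes in 9 of 14 measured, and 6 of 10 in all 4 samples, with none lower and a median log2 ratio of 4.49. The list summed to 5543, 6435, 5347 and 6929 CPM in the epithelial cells. In the fibroblast gate given below it summed to 4372, 4732, 6183 and 4262 CPM, and in the endothelial gate to 4904, 3745, 2584 and 2494 CPM. High sums beside leukocytes were thus not particular to the epithelial cells. Hbegf, a ligand of the epidermal growth factor receptor, was at 629, 1148, 1274 and 1241 CPM. Its relative Areg was at 1188, 1005, 692 and 959 CPM, and the receptor Egfr at 321, 341, 209 and 283 CPM. Leukocytes had at most 16.7, 85.1 and 4.15 CPM of these. F3, tissue factor, was at 752, 690, 543 and 521 CPM. Ly6a, also called Sca-1, was at 859, 1082, 906 and 2150 CPM and was also made by leukocytes (331, 174, 145 and 139 CPM), so that it was called in sample 4 and not in all 4. Anxa1 was not called, at 823, 752, 564 and 626 CPM beside 160, 69.0, 203 and 275 CPM in leukocytes. Of the 9 genes of this list that could be compared between samples, 0 differed 4-fold, beside 11.5% of all genes compared. There was no undamaged colon in the series to set these levels against.

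Of 19 inflammasome genes measured, 11 were higher and 2, Nlrp3 and Il1b, lower, beside 17.2% and 22.3% of all genes. The median log2 ratio was 2.25. In all 4 samples 6 of 17 were higher and the same 2 lower, beside 10.5% and 9.47% of all genes. The counts of lower genes are thus near these shares or below them. Il18, an epithelial cytokine matured by caspases, was at 146, 224, 145 and 258 CPM against at most 24.9 CPM in leukocytes. Pycard, the adaptor of inflammasomes, was at 447, 484, 406 and 345 CPM. Naip1, a sensor of bacterial secretion needles, was at 91.1, 80.7, 124 and 179 CPM, and Gsdmc4, a gasdermin, at 242, 389, 359 and 447 CPM; members of both families are alike in sequence and may trade reads. Il1b was at 47.5, 33.0, 21.4 and 7.73 CPM, against 738 to 1781 CPM in leukocytes.

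Chemokine and cytokine genes went both ways, with 5 of 14 higher and 6 lower in sample 4. In all 4 samples 1 of 9, Il18, was higher and 3, Cxcl2, Il1a and Tgfb1, were lower, beside 10.5% and 9.47% of all genes. Ccl28, a mucosal chemokine, was at 15.8, 55.0, 51.3 and 60.7 CPM. Ccl20, which draws CCR6 cells, was at 11.9, 0, 0 and 87.2 CPM and was seen in 9 cells. Cxcl2 was at 83.1, 47.7, 72.7 and 69.5 CPM, against 1725 to 4361 CPM in leukocytes. Of 17 cytokine receptors measured 3 were higher and 4 lower, and of 16 in all 4 samples 2 were higher and 3 lower. In sample 4 these are close to the 17.2% and 22.3% over all genes.

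No gene of antigen presentation (14 measured, 4 lower) or of the interferon-induced list (15 measured, 5 lower) was higher than in leukocytes in sample 4, beside 17.2% of all genes higher and 22.3% lower. In all 4 samples 0 of 14 antigen presentation genes and 3 of 11 interferon-induced genes were lower, and none was higher, beside 9.47% and 10.5% of all genes. H2-K1, a class I chain, was at 637, 756, 868 and 913 CPM and was seen in 62 cells. Cd74, the class II chaperone, was at 333, 631, 1577 and 534 CPM, beside 5301, 5186, 2062 and 1701 CPM in leukocytes, and so was within 4-fold of them in samples 3 and 4. Iigp1, an interferon-induced GTPase, was at 235 CPM in sample 3, with 98.2% of its UMIs from 1 cell, and at 15.8, 3.67 and 20.97 CPM in samples 1, 2 and 4.

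Ahr, the ligand-activated receptor that part of the mice lack, was at 43.5 (21.7 to 77.9), 33.0 (15.1 to 62.7), 25.6 (9.41 to 55.8) and 41.9 (29.7 to 57.6) CPM in the epithelial cells. The 4 intervals overlapped. The leukocytes had 118, 134, 107 and 116 CPM. Ahr UMIs were seen in 2, 5, 2 and 17 cells of samples 1 to 4, and 1 cell gave 90.9% of them in sample 1 and 83.3% in sample 3. After thinning the share was 6.90% of epithelial cells and 16.0% of leukocytes, with 40.6% and 38.1% unthinned. Counts cannot say whether a transcript of the mutant allele is counted in the same way, so these levels do not check the genotype. Cyp1a1, the classical AhR target, had no UMI in any epithelial cell, with an exact Poisson upper limit of 4.07 CPM in sample 4. Of 15 AhR pathway genes 6 were measured, and 1 was higher, about the 17.2% of all genes. It was Gsta1, a glutathione transferase, at 39.6, 73.4, 98.3 and 108 CPM. Tiparp, a target and feedback regulator, was at 158, 216, 103 and 111 CPM beside 330, 256, 254 and 259 CPM in leukocytes, and was not called.

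Of 13 polyamine genes measured in sample 4, 0 were at least 4-fold higher than in leukocytes and 5 lower, beside 17.2% and 22.3% of all genes, with a median log2 ratio of -1.63; in all 4 samples 1 of 12 was lower. The list summed to 2573, 1970, 2112 and 1731 CPM beside 2356, 1996, 2731 and 2379 CPM in leukocytes. Odc1, which makes putrescine from ornithine, was at 119 (80.1 to 170), 128 (89.4 to 179), 107 (69.2 to 158) and 60.7 (45.7 to 79.0) CPM. Leukocytes had 275, 327, 105 and 111 CPM. No difference between samples is read from these values. In sample 1, 2 cells had Odc1 UMIs and 1 of them gave 76.7%. Sat1, which acetylates spermidine and spermine for export, was at 337, 499, 658 and 576 CPM, and Oaz1, the antizyme that blocks Odc1, at 772, 580, 620 and 480 CPM.

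Secretory lineages stood out as single cells. For each cell the share of UMIs on a lineage list was taken, and a line was drawn at 1% after the values had been seen. For goblet genes 5 cells passed it (0, 3, 0 and 2 in samples 1 to 4), the lowest at 1.02%, and the next cell was at 0.133%. For enteroendocrine genes 3 cells passed (0, 0, 1 and 2), the lowest at 1.68% and the next cell at 0.0343%. For tuft genes 1 cell of sample 2 passed, at 1.01%, with the next at 0.0339%. These 9 cells were distinct, and 37 of the other 55 had at least 1% of their UMIs on the absorptive list. The absorptive shares had no such gap, with 0.938% just under the line and 1.03% just over it, and 18 cells reached 1% on none of the 4 lists. The median cell had 1.45% absorptive and 0.0294% goblet UMIs.

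**Figure D4:**
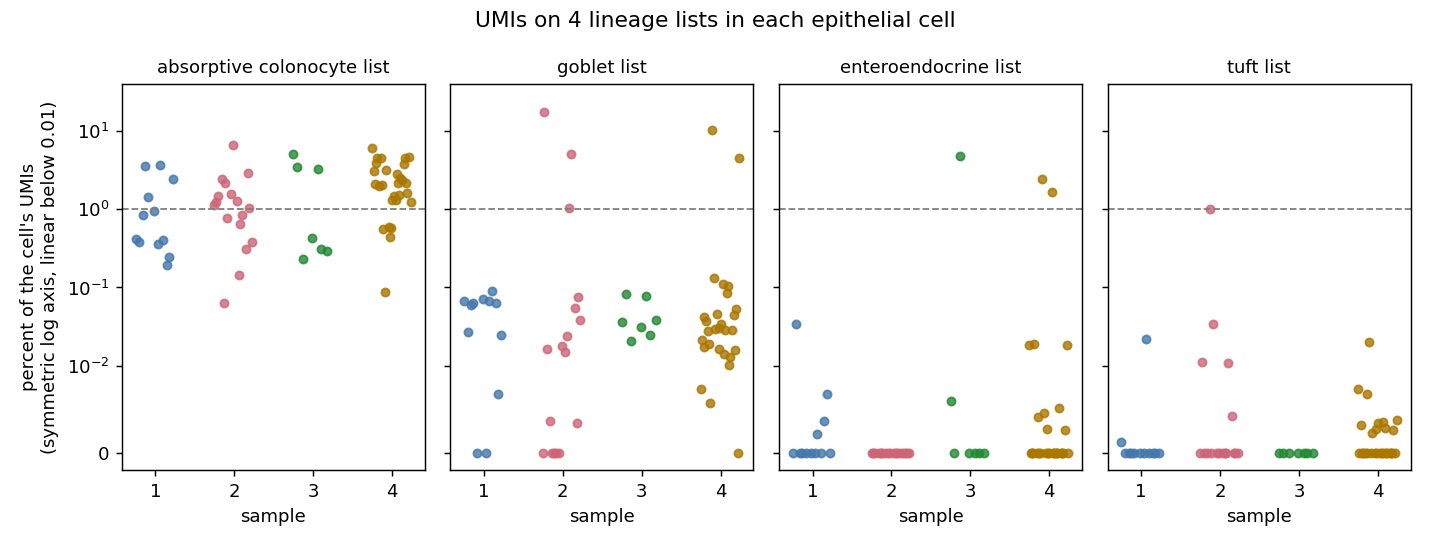
Percent of each epithelial cell's UMIs on the absorptive colonocyte, goblet, enteroendocrine and tuft lists (symmetric log axis, linear below 0.01) by sample, 1 point per cell, with a dashed line at 1%. Goblet, enteroendocrine and tuft genes were concentrated in 5, 3 and 1 cells well above the rest, while the absorptive shares formed a continuous range up to 6.56%.

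The goblet cells carried the secreted products. Of 15 goblet genes measured in sample 4, 13 were higher than in leukocytes and 1, Ccl9, lower, but 3 of 5 were higher in all 4 samples. The highest, in sample 2, had 17.5% of its 27079 UMIs on the list, with 2314 UMIs of Zg16, a lectin of the mucus layer, and 343 of Muc2. In sample 4 the highest had 10.1% of 49844 UMIs, with 1139 of Zg16 and 886 of Muc2, and another had 519 of Muc2 and 122 of Zg16. Another cell of sample 2 had 501 of Zg16 and 38 of Muc2; it was the 1 epithelial cell with a high Scrublet score, and without it sample 2 had 2 goblet cells. Zg16 thus had more UMIs than Muc2 in all 3 goblet cells of sample 2 and in 1 of the 2 of sample 4. The cell of sample 2 nearest the line, at 1.02%, had 7 UMIs of Zg16 and 3 of Muc2 and also 120 of Reg3b. Summed over samples this gave Zg16 levels of 47.5, 10360, 8.55 and 1400 CPM, with 81.9% of the UMIs of sample 2 and 89.8% of those of sample 4 from 1 cell each.

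The enteroendocrine cells differed in the hormone genes they carried. A cell of sample 3 with 4803 UMIs had 152 of Chgb and 45 of Chga, granins of secretory granules, and 20 of Tph1, the rate-limiting enzyme of serotonin synthesis. One of sample 4 with 2254 UMIs had 35 of Chgb, 15 of Chga and 2 of Tph1. The other cell of sample 4 had 894 UMIs, of which 8 were of Gcg, the proglucagon gene, and 6 of Pyy, peptide YY, and none of Chgb; it also had 15 of Reg3b and 7 of Lypd8. The cell with tuft genes had 3171 UMIs, with 10 of Dclk1, a kinase used to mark tuft cells, and 5 of the taste channel Trpm5. It had 36 UMIs of Krt18 and 15 of Krt8. Chgb was seen in 2 of the 64 cells and in 0.174% of leukocytes, and Dclk1 and Trpm5 in the tuft-gene cell alone among the 64.

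Lgr5, which marks crypt base stem cells, had a UMI in 1 cell, Ascl2 in 1 and Olfm4 in none. Of 8 stem and crypt base genes measured 5 were higher and 1, Olfm4, lower, beside 17.2% and 22.3% of all genes. The 5 higher genes were Aqp4, Prom1, Lgr4, Slc12a2 and Sox9, which are not limited to stem cells. Aqp4, a water channel, was at 198, 774, 440 and 558 CPM. Proliferation genes were lower than in leukocytes in 7 of 8 measured in sample 4 (median log2 ratio -3.31), beside 22.3% of all genes. None of 6 was lower in all 4 samples, beside 9.47% of all genes. The proliferation list summed to 1865, 312, 616 and 217 CPM beside 718, 985, 1004 and 1146 CPM in leukocytes, so that samples 2 to 4 were below their leukocytes. In sample 1 the cell with 82644 UMIs had 371 of the 471 UMIs, and without it the sum was 588 CPM, below the leukocytes. Mki67, a marker of cycling cells, was at 135, 14.7, 64.1 and 8.83 CPM. With a line at 0.1% of UMIs, 3, 1, 1 and 0 cells of samples 1 to 4 lay above it; the lowest was at 0.102% and the next cell at 0.0834%, so there was no gap, and the cell of sample 2 had no Mki67 UMI.

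Clustering the 64 cells on their variable genes gave 3 groups that each held cells of all 4 samples. Their leading genes define them and are given as a description only. Sub-cluster 1 (25 cells; 5, 8, 4 and 8) was led by Agr2, Slc12a2, Tubb5, Cd24a, Airn, Arfgef3, Ncl, Ptma, Gpx2 and Nme1. It held all 5 goblet and 3 enteroendocrine cells, the 1 tuft-gene cell and the 5 cells highest in proliferation genes and so is left without a name. Agr2, a disulfide isomerase of mucus production, was at 1692 CPM in it and at 16.2 and 124 CPM in sub-clusters 2 and 3. Car4, the membrane carbonic anhydrase of surface colonocytes, had no UMI in its 25 cells.

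Sub-clusters 2 and 3 were both absorptive colonocyte-like by the list, with 10 and 6 of its genes over 2-fold above the other cells. Sub-cluster 2 (20 cells; 5, 3, 2 and 10) was led by Car4, Saa1, Clca4b, Ifit1bl1, Ly6g, Upp1, Clca4a, Slco2a1, Ly6c1 and Tgm3. Sub-cluster 3 (19 cells; 2, 6, 1 and 10) had among its leading genes Aqp4, Guca2b, Flrt3, Slc5a8, Maoa, Hao2, Lrrc19, Cyp2c55 and Wls. Krt20, a keratin of differentiated surface cells, was at 1065 CPM in sub-cluster 2, 461 CPM in 3 and 57.6 CPM in 1. Lypd8 was at 17604, 5173 and 1521 CPM in the same order, while Guca2a was about level between sub-clusters 2 and 3 (2985 and 2951 CPM). Saa1 was at 3336 CPM in sub-cluster 2 and 86.4 CPM in 3. Slc26a3 and Krt20 were higher in sub-cluster 2 than in 3 within all 4 samples. Aqp4 was higher in sub-cluster 3 within samples 2, 3 and 4 and had no UMI in either sub-cluster in sample 1. From 1 to 10 cells stood behind each such value.

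**Figure D5:**
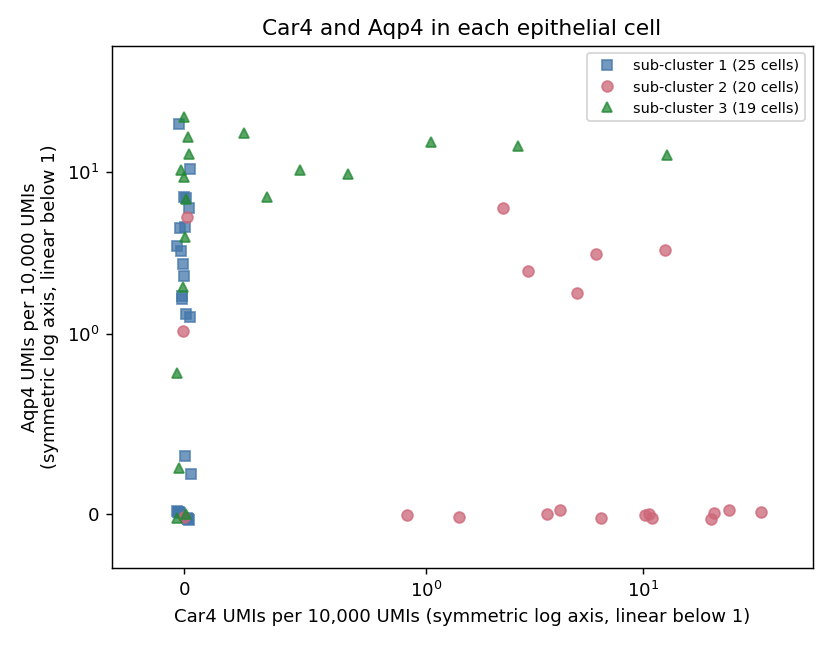
Car4 against Aqp4 UMIs per 10000 UMIs (symmetric log axes, linear below 1) in each of the 64 epithelial cells, by sub-cluster; points at 0 are spread slightly. Sub-cluster 1 lay on the Car4-negative side, sub-cluster 2 reached the highest Car4 and sub-cluster 3 the highest Aqp4.

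Car4 and Aqp4 separated many but not all cells. Car4 alone was seen in 12 cells, Aqp4 alone in 29, both in 12 and neither in 11. In sub-cluster 2, 17 of 20 cells had Car4 and 7 had Aqp4; in sub-cluster 3, 7 of 19 had Car4, each of them with Aqp4, and 17 had Aqp4. Car4 was at 673, 51.4, 308 and 204 CPM in samples 1 to 4, and 1 cell gave 92.9% of its UMIs in sample 1. Cells with both genes came from samples 2, 3 and 4 (4, 2 and 6), and sample 1 had 4 with Car4 alone, 5 with Aqp4 alone and none with both.

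Between samples, 282 of 2462 genes at 100 CPM or more in some sample differed at least 4-fold between the highest and the lowest with exact Poisson intervals apart (11.5%). The 10 with the widest range were Zg16, Tff3, Fcgbp, Muc2, Clca1, Guca2a, Fxyd4, Chgb, Sval1 and Spink4. All 9 goblet genes compared were among the 282, as were 10 of 17 absorptive genes and 6 of 6 proliferation genes, against 1 of 20 junction genes. Chgb and the goblet genes of this set rested on the few cells named above; 1 of 2 cells gave 99.6% of Clca1 UMIs in sample 2. Without sample 1, whose cells were the shallowest by median, the count was 84, and without sample 2, 3 or 4 it was 234, 218 or 191.

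Xist, the RNA of the silenced X chromosome, had no UMI in any of the 64 cells, which allows a share of up to 4.69% of cells with a UMI (3 of 64, for counting error only), and 47 cells had a UMI of the Y-linked genes Ddx3y, Eif2s3y, Kdm5d or Uty. Xist was at no more than 0.0354 CPM in the leukocytes of any sample.

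The 263 cells with an excluded UMI were also summed over these lists. Junction genes summed to 6392, 5891, 8080 and 8131 CPM in them and to 7788, 8544, 9438 and 9359 CPM in the 64 cells. Absorptive genes summed to 6105, 8899, 11622 and 16056 CPM in them against 9712, 13988, 16085 and 25216 CPM, so that sample 4 was highest and sample 1 lowest in both sets. Goblet genes summed to 7205, 4568, 17006 and 4163 CPM in them against 586, 21806, 419 and 7164 CPM, and here the order differed, samples 1 and 3 having goblet RNA among the excluded cells and little among the 64. Enteroendocrine genes summed to 413, 1408, 1934 and 740 CPM in them and to 39.6, 0, 983 and 100 CPM in the 64 cells. Neutrophil genes were higher in the excluded cells, at 3367, 2092, 2250 and 4568 CPM.

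Stromal cells were carried through as well. A fibroblast gate held 39, 33, 273 and 133 cells and an endothelial gate 8, 6, 48 and 39 in samples 1 to 4. Samples 3 and 4 had more of both than samples 1 and 2, whereas epithelial cells were fewest in sample 3 and most numerous in sample 4.

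Epcam lies on chromosome 17 (87635979 to 87651129, plus strand, GRCm38), Lypd8 on chromosome 11 (58379043 to 58390728, plus strand), Reg3b on chromosome 6 (78370657 to 78373466, plus strand), Zg16 on chromosome 7 (127050156 to 127087328, minus strand) and Car1 on chromosome 3 (14766216 to 14808368, minus strand). These spans are of whole genes.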

How the data were processed

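Raw UMI counts per gene and cell were deposited by the authors for 4 samples, unnormalized, with the cells called by Cell Ranger. The matrix header names Cell Ranger 7.0.1, whereas the submitters' processing notes list Cell Ranger 5.0.0, STAR, Seurat and mm10, so the version is uncertain. Of 32285 gene identifiers, 32235 were in GENCODE M21 (GRCm38), from which coordinates were taken.

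Epithelial cells were selected by the thresholds given above, and their members and the gene lists, 36 in number, were chosen with earlier results of these data known. Levels are CPM of UMIs summed over cells within a sample, with exact Poisson 95% intervals; shares have exact Clopper-Pearson intervals, and the limit given for a share of 0 is 3 counts of the total. Where leukocytes had 0 UMIs, 3 UMIs were set as the floor. The genes named were up to 6 of the highest CPM per list with those that counts required, the 10 called genes with the largest ratio in the sample where it was lowest, the 10 widest ranges of log2(CPM + 10) between samples, and Ahr, Cyp1a1 and Odc1; other list genes, those of single cells and those of the sub-clusters were named after their values were seen. The rule genes were left out of counts of calls. The calling rule was tested on simulated data.

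Detection was compared after thinning cells to 2000 UMIs, leaving out 6 epithelial cells. The 64 cells were clustered in scanpy 1.11.5 on 1000 variable genes, 15 principal components and 10 neighbours at Leiden resolution 0.5. No doublets were removed from the main set; Scrublet scores, cut at 0.8% per 1000 cells, served as an alternative. All samples are in no group, so no p-value was computed. Depth per sample was 72509408 to 135516016 UMIs. Alternatives were other limits of the rule, CPM floors, comparison cells, thinning depth, resolution and leaving out samples. Minima of 5 cells, cells of at least 2000 UMIs and removal of the deepest cell of each sample were added after the data had been seen. Some genes are not reported here.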

Additional observations from a re-analysis of the deposited data

How the results depend on the processing

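The number of epithelial cells kept within 1.5 times of 64 (59 to 66) under other gene, Epcam and keratin limits and without high Scrublet scores, which removed 1 cell. It moved to 30 cells (0.0709% of filtered cells) with under 10% mitochondrial UMIs, to 127 (0.285%) with no mitochondrial limit and to 123 (0.283%) when 1 UMI of the excluded genes was let through. The last 2 settings brought 3 samples to 20 cells, and requiring the call in all of them gave 734 and 857 genes higher and 823 and 914 lower than in leukocytes, in place of 1303 and 1691 in sample 4 alone; under 10% no sample had 20 cells and no value was obtained, nor was one without sample 4, the only one read. A CPM floor 5 times higher gave 612 higher and 744 lower in sample 4, and 259 and 325 in all 4 samples. Leaving out 1 sample at a time gave 709 to 848 higher and 637 to 745 lower in the rest. The 282 genes that differed between samples became 588 under 10% mitochondrial UMIs, a setting in which only 3 samples could be read. They became 109 with 1 excluded UMI allowed, 831 and 47 with floors 5 times lower and higher, and 84 to 234 without 1 sample. Thinned to 1000 UMIs, 64 list genes reached 25% of epithelial cells, against 104 at 2000. The median goblet and absorptive shares stayed within the order-statistic intervals of their main values in all 9 alternatives each. At resolution 0.3 there were 3 sub-clusters, and at 1 there were 4, with the 5 goblet cells apart. No paired analysis was possible because the labels put no sample in a group. Depth limits sample 1, with a median of 3576 UMIs per epithelial cell, and the 7 cells limit sample 3.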
